A study of Mus musculus with 4 samples.

Results

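The SMAD family and 3 SMAD corepressors were examined in RNA from sorted CD8 tumour-infiltrating T cells specific for ovalbumin. The 10 genes were taken by name from the deposited count tables: the receptor-activated SMADs Smad1, Smad2, Smad3 and Smad5, the common partner Smad4, the inhibitory SMADs Smad6 and Smad7, and the corepressors Ski, Skil and Tgif1. All 10 were among the 14082 genes listed, and all 10 passed the filter on low counts that left 13358 genes for testing. Smad9, another gene of the SMAD family, was not among those listed. Bulk RNA was sequenced in 4 libraries. The 2 libraries labelled KO came from mice of genotype Cd8-cre Smad4-fl/fl, and the 2 labelled WT from mice of genotype Smad4-fl/fl, so both groups carried the floxed allele and differed in the Cre transgene, which the label ties to Cd8. KO and WT stand here for libraries so labelled. All hosts were 6 to 10 weeks old and had received 1000000 E.G7 cells in 100 µL under the skin of the flank. E.G7 is a mouse T lymphoma line, derived from EL4, that makes ovalbumin. Separate or pooled animals are not stated for the libraries of either group, and the p-values therefore cover the spread among these libraries alone, which may be technical. The part of Smad4 that is flanked by loxP sites is not named in the labels.

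SMAD proteins carry signals of the TGF-beta and BMP receptors to the nucleus. Activated TGF-beta receptors phosphorylate SMAD2 and SMAD3, BMP receptors phosphorylate SMAD1 and SMAD5, and the phosphorylated proteins form complexes with SMAD4 that bind DNA. SMAD6 and SMAD7 block the receptors or the SMAD complex, and SKI, SKIL (also called SnoN) and TGIF1 recruit repressor complexes to SMADs. Smad7 and Skil are textbook targets of the TGF-beta pathway that they restrain, and in CD8 T cells TGF-beta is known for limiting effector function and favouring tissue residency.

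The libraries held 25806382 and 26218277 counts (KO) and 24366540 and 25790107 counts (WT). Transcripts of cell types other than CD8 T cells were present in every library. Of 6 CD8 T cell markers 5 were lower in KO (summed 1390 and 1410 CPM in KO, against 2178 and 2185 CPM in WT; CPM are counts scaled to library size with TMM factors). The 6 were Cd8a and Cd8b1, and also Cd3d, Cd3e, Cd3g and Cd247, whose products CD4 T cells carry too. Of 8 neutrophil markers 7 were higher (2168 and 2355 CPM in KO, 1028 and 974 CPM in WT), although Ly6g stayed between 0.338 and 0.704 CPM. Of 8 monocyte and macrophage markers 1 was higher and 1 lower (16600 and 17336 CPM in KO, 16891 and 17565 CPM in WT), and Lyz2, the macrophage lysozyme, alone had 11562 to 12357 CPM although the sort was for CD8 T cells. Among dendritic cell markers 1 of 7, Flt3, was higher and 2 were lower. The 7 markers summed to 869 and 868 CPM in KO and 1190 and 1192 CPM in WT. Most of each sum was Ccr7, a lower marker, with 708 and 702 CPM in KO and 1036 and 1035 CPM in WT. Among 4 markers of CD4 and regulatory T cells (198 and 199.9 CPM in KO, 178 and 181 CPM in WT) 1 was higher. It was Cd4, with 63.1 and 67.7 CPM in KO and 26.9 and 32.2 CPM in WT. Of 4 tested B cell markers 2 were higher (16.4 and 14.1 CPM in KO, 6.92 and 6.88 CPM in WT). Fibroblast and endothelial markers had 2 higher and 1 lower of 7 (608 and 671 CPM in KO, 578 and 532 CPM in WT). Mitochondrial transcripts took 6.57% and 6.99% of counts in KO, against 10.4% and 10.2% in WT.

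Of the 10 genes, Smad7, Skil and Tgif1 fell in the libraries labelled KO, none rose, and 7 did not pass the test. All of these falls were in genes that restrain SMAD signalling, and of those genes Ski and Smad6 were not called. A gene was called at a Benjamini-Hochberg adjusted p under 0.05 in edgeR's quasi-likelihood test, adjusted over all 13358 genes. By this rule 21.2% of all tested genes were called in either direction, 11.0% lower and 10.1% higher, against 3 lower and 0 higher among these 10. Over all genes these were 1354 higher and 1472 lower calls, and scaling by library totals turned the split to 2105 higher and 1013 lower. Among the 10 genes DESeq2 and limma-voom called 0 higher as well, and edgeR gave 0 higher at p under 0.05 before adjustment. Without KO replicate 1 there was 1 higher gene, Smad4, and without WT replicate 2 or with library totals alone as the scaling there were 2 lower genes instead of 3. The median log2 fold change was -0.11 over the 10 genes and -0.0037 over all tested genes, and the median absolute log2 fold change was 0.22 over both. The KO and WT libraries did not overlap for 4 of the 10 genes, whereas 59.8% of all tested genes had no overlap.

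**Figure D1:**
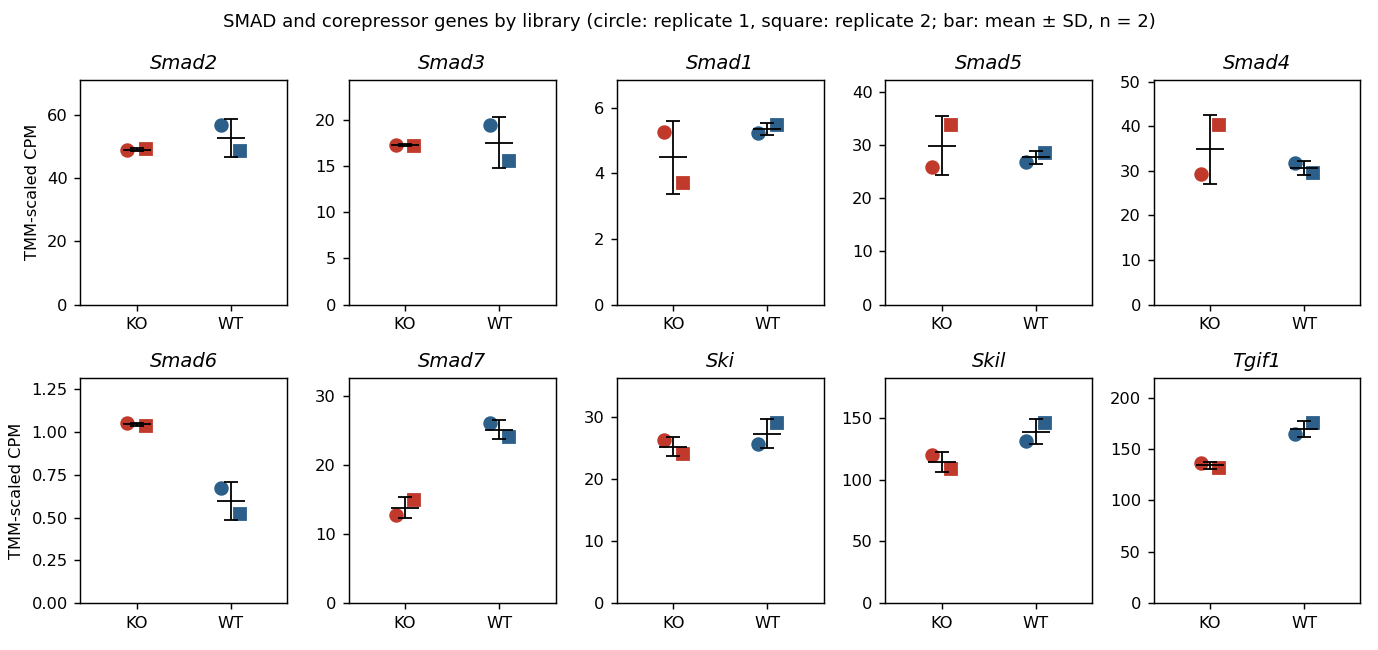
TMM-scaled CPM of each gene (vertical axes start at 0) in the KO libraries (left, red) and the WT libraries (right, blue), with replicate 1 as a circle, replicate 2 as a square and the mean ± SD as a bar. Smad7, Skil and Tgif1 have both KO libraries below both WT libraries, Smad6 has them above at no more than 1.05 CPM, and for Smad4 and Smad5 KO replicate 2 stands above the other 3 libraries.

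Smad4, the gene targeted in this design, was not called lower in the libraries labelled KO. The gene is protein coding and spans bases 73639009 to 73703780 of chromosome 18, minus strand (mm10, GENCODE M21). Its counts were 779 and 1088 in KO, against 752 and 736 in WT. The CPM were 29.3 and 40.3 in KO and 31.7 and 29.4 in WT, so KO replicate 1 lay below both WT libraries and KO replicate 2 above them. The fitted log2 fold change was 0.19 ± 0.14 (SE; 95% confidence interval -0.12 to 0.49; edgeR adjusted p = 0.397). Gene-level counts include exons that Cre leaves in place and reads from cells in which Cd8-cre need not act, so they do not show whether the floxed part was lost, and the directions given here are between libraries labelled KO and WT.

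The Smad4 value rested on KO replicate 2. The log2 fold change became -0.063 when that library was left out (edgeR adjusted p = 0.784) and 0.40 when KO replicate 1 was left out (edgeR adjusted p = 0.00806). Smad4 was 1.38-fold higher in KO replicate 2 than in KO replicate 1. Of the 10409 genes with a mean of at least 100 counts, 6.55% were further apart between these libraries, whereas 46.4% were further apart than Smad4 between the WT libraries. By root mean square distance of log2 CPM over the 4 libraries, each gene centred on its own mean, the profiles nearest to Smad4 among 9869 genes were those of Pkn3 (0.00597), Fastkd3 (0.0181) and Anapc7 (0.0273). Pkn3 encodes a protein kinase, Fastkd3 a mitochondrial protein and Anapc7 a subunit of the anaphase-promoting complex. None of them was called, but they were chosen for likeness to Smad4, so this is no separate result.

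Smad5, a BMP-activated SMAD on chromosome 13, was, like Smad4, highest in KO replicate 2. It had 26.0 and 33.9 CPM in KO and 26.9 and 28.6 CPM in WT, so the groups overlapped. The log2 fold change was 0.11 ± 0.13 (SE; edgeR adjusted p = 0.634), with a 95% confidence interval of -0.18 to 0.40, and it was -0.098 without KO replicate 2. Its ratio to Smad4 within a library, in FPKM (counts divided by gene length and library size), was 0.443 and 0.420 in KO and 0.424 and 0.486 in WT. Smad1, the other BMP-activated SMAD of the 10 genes, on chromosome 8, went the other way between the KO libraries. Its counts were 140 and 100 in KO, against 124 and 137 in WT, and KO replicate 2 was the lowest of the 4. Between the KO libraries only 5.31% of the genes with at least 100 counts on average were further apart than Smad1. The log2 fold change of Smad1 was -0.26 (95% confidence interval -0.84 to 0.32; edgeR adjusted p = 0.558).

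Smad2 and Smad3, the SMADs that TGF-beta receptors phosphorylate, overlapped between the groups. Smad2, on chromosome 18, had 48.9 and 49.4 CPM in KO and 57.0 and 48.6 CPM in WT. Smad3, on chromosome 9, had 17.3 and 17.2 CPM in KO and 19.5 and 15.6 CPM in WT. For both genes the KO libraries lay close together and between the WT libraries. The log2 fold changes were -0.10 for Smad2, with a 95% confidence interval of -0.31 to 0.11 (edgeR adjusted p = 0.513), and -0.02 for Smad3, with one of -0.35 to 0.31 (edgeR adjusted p = 0.944). Both intervals exclude a 2-fold change in either direction. Smad2 turned to 0.014 and Smad3 to 0.15 without WT replicate 1, and Smad3 to 0.06 with library totals alone. The FPKM ratio of Smad3 to Smad2 was 0.561 and 0.552 in KO and 0.541 and 0.508 in WT, without overlap but with a difference of means of the size of the WT gap. No exact two-sided permutation test of 2 libraries against 2 can give a p below 0.333, so the ratios are given without a test.

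Smad7, the inhibitory SMAD that recruits ubiquitin ligases to the TGF-beta receptor, had the deepest fall of the 10 genes. The gene spans bases 75367529 to 75395935 of chromosome 18, plus strand (mm10). Its counts were 338 and 402 in KO, against 617 and 602 in WT. In CPM these were 12.7 and 14.9 in KO and 26.0 and 24.1 in WT, with both KO libraries well below both WT libraries. Smad7 was 1.81-fold lower, a log2 fold change of -0.86 ± 0.14 (SE) with a 95% confidence interval of -1.16 to -0.56 (edgeR adjusted p = 0.000837). It was called lower under each of the 13 other settings tried, with log2 fold changes from -0.98 without KO replicate 2 to -0.75 without KO replicate 1 and adjusted p-values from 7.95e-08 to 0.00912 (edgeR, DESeq2 or limma). Nr4a3, Ctla2a and H2-Q6 had the profiles nearest to that of Smad7, at distances of 0.0194, 0.0273 and 0.0379. They were chosen for likeness to Smad7 over the same libraries, so their falls are no separate result. Their log2 fold changes were -0.82, -0.88 and -0.93. Nr4a3 encodes an orphan nuclear receptor and H2-Q6 a class Ib major histocompatibility protein. Ctla2a and H2-Q6 have close paralogs, so their counts are uncertain.

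The fall of Smad7 lay within the range of the falls of the CD8 T cell markers. Cd8a, a chain of the CD8 co-receptor, had a log2 fold change of -0.93 and Cd8b1, the other chain, one of -0.96 (edgeR adjusted p = 1.23e-07 and 1.02e-07), and the chains of the T cell receptor complex fell too except for Cd3d. Their log2 fold changes were -0.72 for Cd3e, -0.59 for Cd3g and -0.90 for Cd247 (edgeR adjusted p = 1.04e-05, 2.55e-05 and 8.21e-06), and Cd3d had one of -0.14 (edgeR adjusted p = 0.123). All 6 markers were used as denominators. The FPKM ratio of Smad7 to Cd8a was 0.0427 and 0.0484 in KO and 0.0444 and 0.0426 in WT, and the groups overlapped. The ratio of Smad7 to Cd3d was 0.0159 and 0.0169 in KO and 0.0277 and 0.0265 in WT, and that to Cd3e was 0.0663 and 0.0702 in KO and 0.0744 and 0.0763 in WT, both without overlap. The groups overlapped for Cd3g, Cd8b1 and Cd247 as well as Cd8a. Smad7 was thus lower in both KO libraries against 2 of 6 markers and overlapped against 4. The wide gap was the one against Cd3d, the marker that was not called. These 2, Cd3d and Cd3e, encode chains of the T cell receptor complex, which CD4 T cells also carry. The same holds for Cd3g and Cd247, against which Smad7 overlapped, so this trait does not set the 2 apart. Cd4 was higher in KO (log2 fold change 1.14, edgeR adjusted p = 7.42e-06). The other markers on the list of CD4 and regulatory T cells were not called. Their log2 fold changes were 0.14 for Foxp3, -0.17 for Il2ra and -0.20 for Ikzf2. The part of CD4 T cells in these ratios was not tested. Against Cd8a and Cd8b1, the chains of CD8 itself, Smad7 overlapped. In bulk RNA fewer cells of a type and less RNA per cell cannot be told apart. The part of the lower CD8 markers and the higher neutrophil markers in the changes of these genes was not tested.

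**Figure D2:**
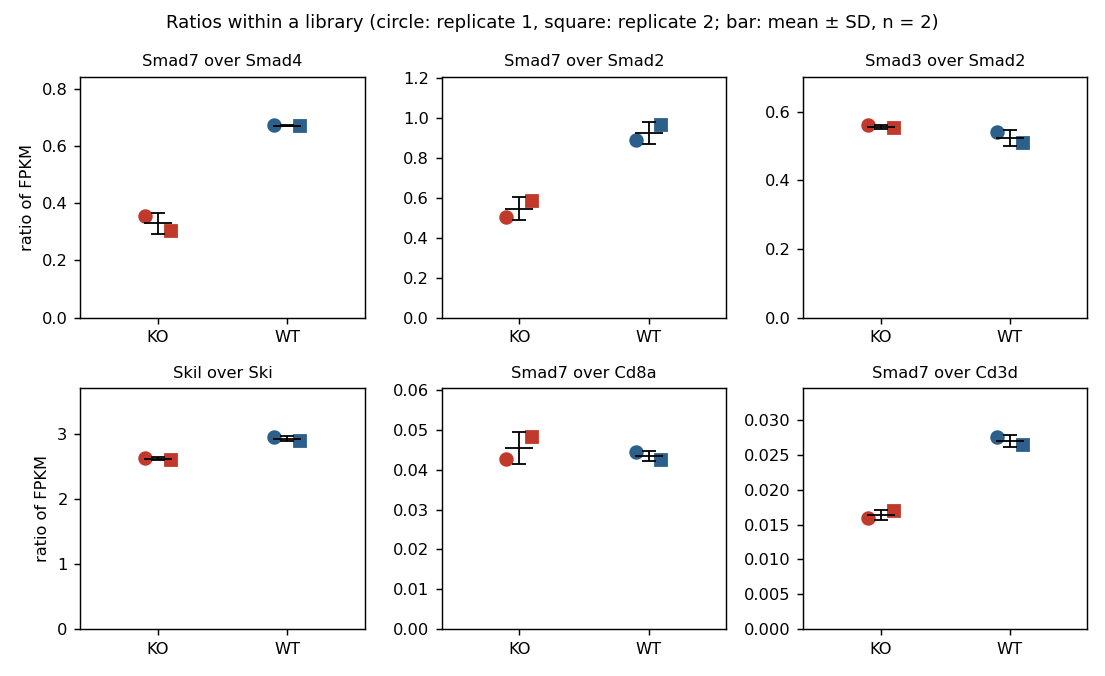
Ratios of FPKM of gene pairs within each library (vertical axes start at 0) in the KO libraries (left, red) and the WT libraries (right, blue), with replicate 1 as a circle, replicate 2 as a square and the mean ± SD as a bar. Smad7 over Smad4, over Smad2 and over Cd3d is lower in both KO libraries, while Smad7 over Cd8a overlaps between the groups at 0.0426 to 0.0484, as it does for 4 of 6 CD8 T cell markers used as denominators.

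Against other SMADs in the same library Smad7 was lower too. The FPKM ratio of Smad7 to Smad4 was 0.356 and 0.303 in KO and 0.674 and 0.672 in WT, and that of Smad7 to Smad2 was 0.505 and 0.586 in KO and 0.887 and 0.963 in WT. Neither ratio overlapped between the groups. Smad6, the inhibitory SMAD that acts mainly on BMP signals, was close to the limit of detection. Its counts were 28 and 28 in KO, against 16 and 13 in WT, or 1.05 and 1.04 CPM in KO and 0.675 and 0.520 CPM in WT. The KO libraries lay above the WT libraries, but the log2 fold change of 0.80 had a 95% confidence interval of -0.54 to 2.14 (edgeR adjusted p = 0.407), so neither direction was detectable at this depth.

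Tgif1 and Skil, the corepressors with the most RNA, fell by small amounts. Tgif1 encodes a homeodomain protein that binds SMAD2 and SMAD3 and recruits histone deacetylases, and its gene spans bases 70844205 to 70853546 of chromosome 17, minus strand (mm10). It had 137 and 132 CPM in KO, against 164 and 175 CPM in WT, with no overlap. Tgif1 was 1.26-fold lower, with a log2 fold change of -0.34 ± 0.06 (SE; edgeR adjusted p = 0.00203). It was called lower under all 13 other settings, with log2 fold changes from -0.39 to -0.25 and adjusted p-values from 6.89e-05 to 0.0244. Skil, whose protein is degraded when TGF-beta signals and whose gene is then induced, spans bases 31095058 to 31122577 of chromosome 3, plus strand (mm10). It had 120.5 and 109 CPM in KO, against 132 and 146 CPM in WT, so the groups did not overlap but KO replicate 1 and WT replicate 1 were close. Skil was 1.21-fold lower, with a log2 fold change of -0.28 ± 0.07 (SE; edgeR adjusted p = 0.0181). The call of Skil was lost without WT replicate 2 (log2 fold change -0.20, edgeR adjusted p = 0.190) and under scaling by library totals (-0.19, edgeR adjusted p = 0.0795), and its adjusted p-values over the settings ran from 0.000283 to 0.190. Ski, the paralog of Skil on chromosome 4, had 26.3 and 24.1 CPM in KO and 25.6 and 29.0 CPM in WT, which overlapped. The log2 fold change of Ski was -0.12 (95% confidence interval -0.38 to 0.15; edgeR adjusted p = 0.555).

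Set against the same 6 markers, Tgif1 and Skil were each higher in both KO libraries relative to 5, all but Cd3d. A gene that falls less than a marker is higher relative to it by arithmetic. Smad4, which was not called, was higher in both KO libraries relative to all 6. The FPKM ratio of Tgif1 to Cd8a was higher in KO, at 0.369 and 0.344, than in WT, at 0.225 and 0.249. The ratio of Skil to Cd8a was 0.189 and 0.165 in KO, against 0.105 and 0.121 in WT, also without overlap. Tgif1 to Cd3e was 0.573 and 0.499 in KO, against 0.377 and 0.446 in WT, and Skil to Cd3e was 0.293 and 0.240 in KO, against 0.176 and 0.216 in WT. Relative to Cd3d, Tgif1 was at 0.137 and 0.120 in KO and 0.140 and 0.155 in WT, and Skil was at 0.0703 and 0.0578 in KO and 0.0654 and 0.0749 in WT. Against Cd3d alone Tgif1 was slightly lower in KO, and Skil overlapped. Skil to Ski was 2.63 and 2.60 in KO and 2.95 and 2.89 in WT.

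**Figure D3:**
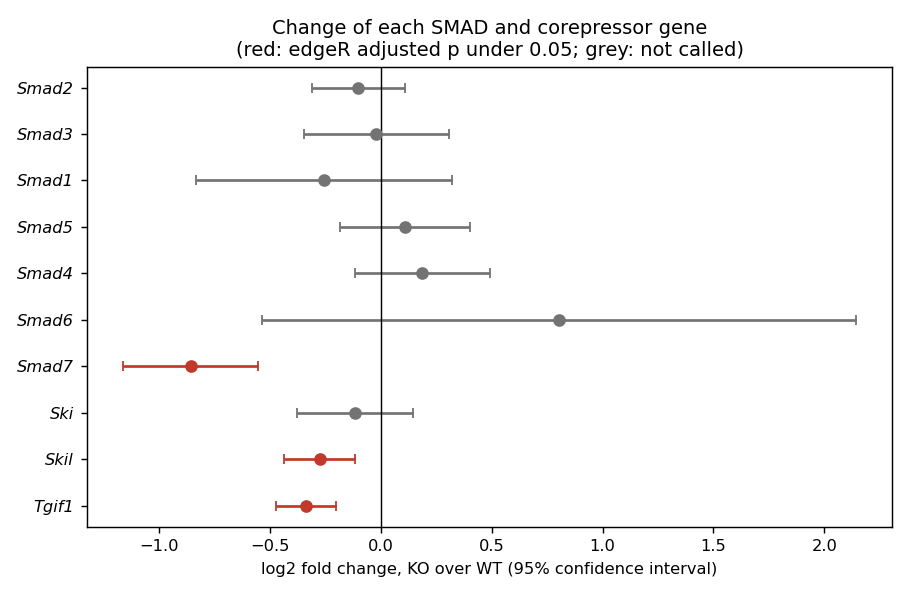
Log2 fold change of each gene, KO over WT, from edgeR with its 95% confidence interval on the horizontal axis, with called genes in red and others in grey. The intervals of Smad7 (-1.16 to -0.56), Skil (-0.44 to -0.12) and Tgif1 (-0.47 to -0.20) lie below 0, and that of Smad6 is the widest (-0.54 to 2.14).

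Promoter sequences are shown for Tgif1, which was called, and for Smad3, which was not, because SMAD3 and SMAD4 bind DNA at short CAGAC elements. RefSeq promoters (GRCm38.p6) matched 6 of the 10 genes, Smad1, Smad3, Smad5, Smad6, Ski and Tgif1, with 12 annotated starts in all. The 250 bases before each start were searched on both strands. Each sequence below runs 5′ to 3′ on the minus strand, overlaps no exon of its gene in GENCODE M21, and has CAGAC or its reverse complement GTCTG in capitals. For Tgif1 the start second furthest upstream was taken, at chr17:70851735-70851984, and for Smad3 the single start, at chr9:63757995-63758244.
Tgif1: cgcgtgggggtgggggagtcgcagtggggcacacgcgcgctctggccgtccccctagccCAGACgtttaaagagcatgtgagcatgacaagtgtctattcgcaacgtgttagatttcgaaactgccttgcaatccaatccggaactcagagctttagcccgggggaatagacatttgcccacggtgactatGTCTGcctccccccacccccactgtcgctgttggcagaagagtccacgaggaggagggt
Smad3: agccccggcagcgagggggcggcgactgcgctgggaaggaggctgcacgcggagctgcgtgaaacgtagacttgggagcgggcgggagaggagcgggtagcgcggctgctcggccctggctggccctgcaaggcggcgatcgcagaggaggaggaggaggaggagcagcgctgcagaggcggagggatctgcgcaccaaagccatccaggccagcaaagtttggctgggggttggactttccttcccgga
The Tgif1 window held CAGAC or its reverse complement 2 times, and the Smad3 window held it 0 times. Of the 12 windows 4 held it (3 of the 5 Tgif1 starts and 1 of the 3 Smad5 starts), against 42.2% of 32536 distinct promoter windows of the same length. The palindrome GTCTAGAC was in 0 of the 12 windows and in 0.169% of all windows. The GC-rich elements GGCGC and GGCCG, also bound by SMADs, were in 7 and 11 of the 12 windows, against 32.2% and 30.6% of all windows. Both elements hold only G and C, and the shares over all windows were not matched for GC content. That content ran from 38.0% in a Tgif1 window to 87.6% in the Ski window, and the excess was not tested. Windows of neighbouring starts overlap, a match is not evidence of binding, and its relation to the fall of Tgif1 was not tested.

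Per length, the order of levels was led by Tgif1, Skil and Smad4 in every library. The mean FPKM of Tgif1 was 23.1 in KO and 29.1 in WT, that of Skil was 11.5 in KO and 13.8 in WT, and that of Smad4 was 9.08 in KO and 7.93 in WT. Smad2 came next after Smad4 in all 4 libraries, at 5.33 to 6.24 FPKM, and its range did not meet that of Smad4, at 7.65 to 10.5 FPKM. Smad7 moved within the order. Its rank among the 10 genes was 8 and 7 in the KO libraries, at 2.73 and 3.19 FPKM, where it overlapped Smad3, and 5 in both WT libraries, at 5.54 and 5.14 FPKM, where it overlapped Smad2. Between them Ski (4.19 to 5.03 FPKM) and Smad5 (3.39 to 4.41 FPKM) overlapped, and Smad3 (2.71 to 3.37 FPKM) lay just below Smad5. Smad1 (0.572 to 0.844 FPKM) and Smad6 (0.156 to 0.318 FPKM) were the lowest in every library and did not overlap each other. Over all listed genes, 85.6% had a lower mean FPKM than Tgif1, 67.1% than Smad4 and 13.2% than Smad6.

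Summed over the family, the inhibitory SMADs held a smaller share in KO, and most of their sum was Smad7. Smad6 went the other way without a call, at 0.318 and 0.313 FPKM in KO and 0.203 and 0.156 FPKM in WT. Smad6 and Smad7 together made up 4.79% and 5.37% of the summed FPKM of the 10 genes in KO, against 7.82% and 7.04% in WT. The 4 receptor-activated SMADs made up 19.9% and 20.6% in KO, against 18.9% and 16.8% in WT. Their summed FPKM overlapped, however, at 12.6 and 13.4 in KO and 13.9 and 12.6 in WT. The corepressors made up 63.3% and 57.9% in KO and 62.1% and 66.0% in WT, which overlapped. The sum over all 10 genes was 63.5 and 65.1 FPKM in KO and 73.4 and 75.2 FPKM in WT. Tgif1, the gene with the highest FPKM, had the largest part of that gap. Between groups the FPKM also carry the authors' own scaling, which divided the KO libraries by 1.06 times and the WT libraries by 1.01 times their summed counts.

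**Figure D4:**
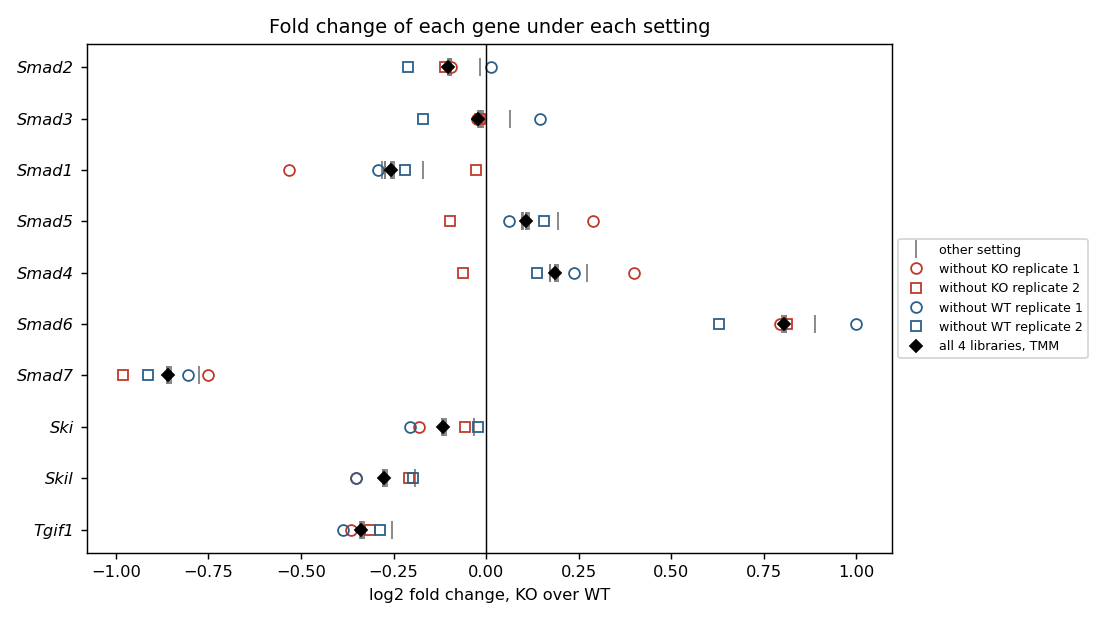
Log2 fold change of each gene, KO over WT, on the horizontal axis, with all 4 libraries (black diamond), with 1 library left out (open circles and squares, red for KO and blue for WT) and under the other scalings, filters, blocks and tools (grey ticks). Smad7 stays between -0.98 and -0.75 and Tgif1 between -0.39 and -0.25, while Smad4 runs from -0.063 without KO replicate 2 to 0.40 without KO replicate 1.

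Genes around the SMADs were read from 6 lists drawn up from general knowledge of the pathway. The lists were written with earlier results of these data known, so shares of calls on them are not independent of these data. Of 67 tested genes on these lists, 8 were higher and 11 lower in KO, 28.4% in all, against 21.2% of all tested genes. With library totals alone there were 12 higher and 6 lower, and without WT replicate 1 or 2 there were 4 and 4 higher and 5 and 7 lower. In the same libraries 5 of 6 CD8 markers were lower and 7 of 8 neutrophil markers higher, and their part in these counts was not tested.

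Receptors that phosphorylate SMADs, their co-receptors and their anchors had 2 lower and 0 higher of 13 tested, with a list median of -0.07. Leaving out KO replicate 2 moved the list median to -0.0083, and it turned to 0.02 when WT replicate 2 was left out. Scaling by library totals turned it to 0.01. Tgfbr2, the receptor subunit that binds TGF-beta, had 69.2 and 84.1 CPM in KO and 113.7 and 98.4 CPM in WT (log2 fold change -0.47, edgeR adjusted p = 0.00447). Endoglin (Eng), a co-receptor, had 20.4 and 22.8 CPM in KO and 37.0 and 29.1 CPM in WT (log2 fold change -0.61, edgeR adjusted p = 0.00645), and leaving out WT replicate 1 ended its call (edgeR adjusted p = 0.122, within a range of 1.02e-05 to 0.122 over the settings). Before adjustment edgeR gave 1 higher member at p under 0.05, DESeq2 and limma-voom called 0, and library totals alone as the scaling gave 1. Tgfbr1, the kinase that phosphorylates SMAD2 and SMAD3, had a log2 fold change of 0.34 (edgeR adjusted p = 0.0850), and it was chosen after its value was seen.

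Enzymes that ubiquitinate, deubiquitinate or dephosphorylate SMADs had 0 higher and 0 lower of 12 tested (edgeR), with a median of -0.06, or 0.03 with library totals alone and -0.03 without WT replicate 1. At an unadjusted p under 0.05 there were 1 higher and 2 lower, and DESeq2 and limma-voom called 0. Without KO replicate 1 there were 1 higher and 1 lower, under scaling by library totals 1 was higher, and with the replicate number as a block 1 was lower. The ubiquitin ligase genes Smurf1 and Smurf2, whose products act with SMAD7, had log2 fold changes of -0.04 and -0.15 (edgeR adjusted p = 0.923 and 0.628) and were chosen after their values were seen.

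Coregulators had 1 higher and 2 lower of 13 tested, with a median of -0.21, or -0.12 with library totals alone. Hdac2, a histone deacetylase, had 83.8 and 67.3 CPM in KO and 54.8 and 56.1 CPM in WT (log2 fold change 0.45, edgeR adjusted p = 0.00711) and was called under all 13 other settings. Crebbp, an acetyltransferase and SMAD coactivator, had 86.6 and 88.3 CPM in KO and 106 and 113 CPM in WT (log2 fold change -0.33, edgeR adjusted p = 0.00446), and leaving out WT replicate 2 ended its call (edgeR adjusted p = 0.0535, the highest over the settings, with a lowest of 0.000859). Leaving out KO replicate 1 gave 4 lower members, WT replicate 1 gave 1 and WT replicate 2 gave 0, scaling by library totals gave 1, and leaving out KO replicate 2 gave 2 higher members.

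DNA-binding partners included 2 higher and 3 lower of 12 tested and had a median of -0.09, or -0.0043 with library totals alone and -0.13 without KO replicate 2. Jun, a subunit of AP-1, had 639 and 626 CPM in KO and 455 and 459 CPM in WT (log2 fold change 0.47, edgeR adjusted p = 3.42e-05). Runx2, a Runt factor that binds receptor-activated SMADs, had 67.7 and 73.6 CPM in KO and 143 and 128 CPM in WT (log2 fold change -0.94, edgeR adjusted p = 2.71e-06). Both kept their call under all 13 other settings. Foxo3, a forkhead factor, changed by 0.47, Foxo1, another, by -0.34 and Zeb2, a repressor that binds SMADs, by -0.23 (edgeR adjusted p = 0.0125, 0.0325 and 0.0263). Leaving out WT replicate 1 ended the call of all 3 (edgeR adjusted p = 0.102, 0.162 and 0.252). Leaving out WT replicate 2 ended those of Foxo3 and Foxo1 (edgeR adjusted p = 0.0671 and 0.177). Scaling by library totals ended those of Foxo1 and Zeb2 (edgeR adjusted p = 0.0934 and 0.139), and DESeq2 did not call Foxo1 (adjusted p = 0.0576). Their adjusted p-values over the settings started at 0.00308, 0.0197 and 0.00781. There were 5 lower members without KO replicate 2, 1 without WT replicate 1 and 1 under scaling by library totals, and 1 higher member without either WT replicate.

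TGF-beta-induced genes included 4 higher and 3 lower of 12 tested and had a median of 0.16. The median was 0.09 when WT replicate 1 was left out. It was 0.25 when WT replicate 2 was left out and 0.25 under scaling by library totals. Ldlrad4, which encodes an inhibitor of SMAD activation, had 22.3 and 20.0 CPM in KO and 13.9 and 12.4 CPM in WT (log2 fold change 0.68, edgeR adjusted p = 0.00517). Bhlhe40, a transcriptional repressor, had 849 and 817 CPM in KO and 1549 and 1582 CPM in WT (log2 fold change -0.91, edgeR adjusted p = 8.89e-08). Both were called under all 13 other settings. The cell cycle inhibitor gene Cdkn1a changed by 0.28 and the residency integrin gene Itgae by 0.82 (edgeR adjusted p = 0.00714 and 0.0298). Cdkn1a was not called when WT replicate 1 was left out (edgeR adjusted p = 0.114). Itgae lost its call without KO replicate 2, WT replicate 1 or WT replicate 2 (edgeR adjusted p = 0.236, 0.0821 and 0.123) and with limma-voom (adjusted p = 0.0551). Tgfbi, which encodes an extracellular matrix protein, and Klf10, which encodes a zinc finger factor, had log2 fold changes of -0.22 and -0.21 (edgeR adjusted p = 0.0265 and 0.0366). Tgfbi lost its call without KO replicate 1 or WT replicate 1 (edgeR adjusted p = 0.143 and 0.212) and under scaling by library totals (edgeR adjusted p = 0.154). Klf10 lost it without KO replicate 2, WT replicate 1 or WT replicate 2 (edgeR adjusted p = 0.143, 0.0639 and 0.267). The replicate number as a block ended it too (edgeR adjusted p = 0.0628), as did scaling by library totals (edgeR adjusted p = 0.196) and DESeq2 (adjusted p = 0.0525). Pmepa1, which encodes another inhibitor of SMAD activation and was below the CPM minimum for naming, was higher too (log2 fold change 1.05, edgeR adjusted p = 0.0250). Without WT replicate 1 there were 1 higher and 1 lower member, without WT replicate 2 there were 2 higher, and with library totals alone 1 was lower. The lowest adjusted p-values over the settings were 6.04e-05 for Cdkn1a, 1.61e-05 for Itgae, 0.000451 for Tgfbi and 0.00409 for Klf10.

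BMP-induced genes had 1 higher and 1 lower of 5 tested, with a median of 0.61. That was the value of Id1, which was not called (edgeR adjusted p = 0.0820). The genes above it, Atoh8 and Hey1, had only 5 to 26 and 1 to 22 counts and were not called. The median was 0.45 with a count minimum of 50 and 0.69 with library totals alone. It was 0.50 without KO replicate 2 and 0.81 without KO replicate 1. Id2, an inhibitor of basic helix-loop-helix factors that effector CD8 T cells use, had 609.6 and 613 CPM in KO and 969 and 1014 CPM in WT (log2 fold change -0.70, edgeR adjusted p = 1.10e-06). Id3, its relative in memory precursors, had 44.9 and 41.3 CPM in KO and 32.3 and 31.0 CPM in WT (log2 fold change 0.45, edgeR adjusted p = 0.00766). Id2 was called under all 13 other settings, while leaving out WT replicate 2 ended the call of Id3 (edgeR adjusted p = 0.0571, within a range of 0.000277 to 0.0571). There were 2 higher members without KO replicate 1 and 2 under scaling by library totals, and without WT replicate 2 there were 0.

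**Figure D5:**
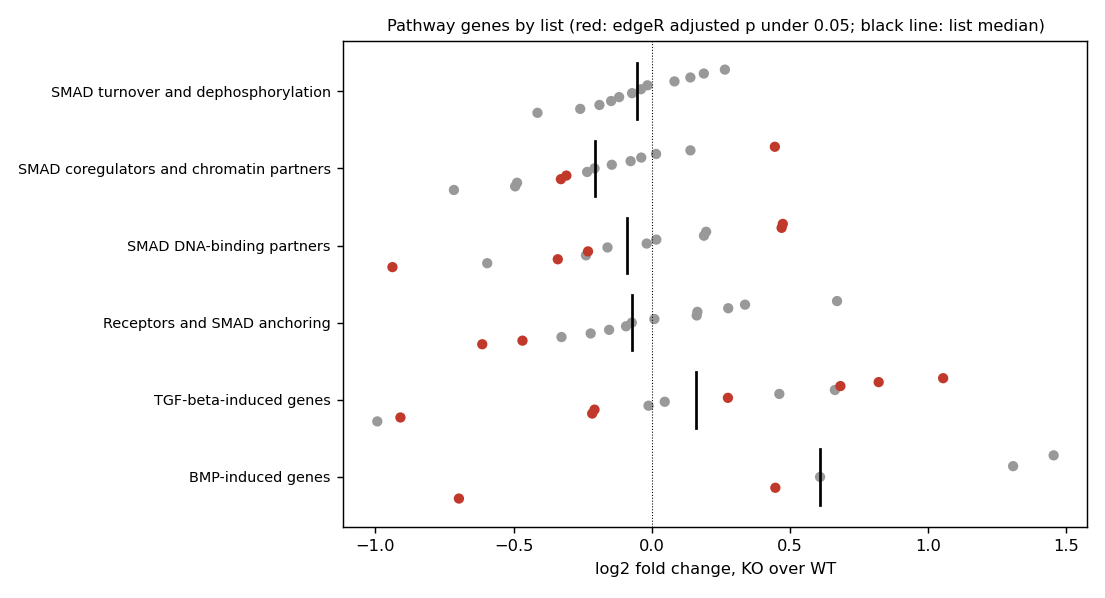
Log2 fold change, KO over WT, of each tested gene on the 6 pathway lists (horizontal axis), with called genes in red, others in grey and the list median as a black line. Called genes stand on both sides of 0 in 4 of the lists, receptors and anchors have 2 called genes below 0, and the turnover list has none.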

How the data were processed

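RNA was sequenced from 2 libraries labelled KO and 2 labelled WT. The deposited counts are whole reads per gene, and the deposited FPKM were scaled by the authors, per the file headers. Per the submitters' processing notes, tools included featureCounts, Bowtie2 and Trim Galore 0.4.4, with mm10 as the build. How featureCounts was set, and whether the libraries keep strand, is not stated in the labels. For the 10 genes the lengths implied by the authors' FPKM equalled the GENCODE M21 exon lengths, and no member shares exon bases with another listed gene.

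The counts entered edgeR 4.0.16 (R 4.3.3), with TMM factors and robust glmQLFit and glmQLFTest. Its filterByExpr (minimum count 10, minimum total 15) removed 724 genes. Common biological variation was 9.31%. FPKM entered no test and gave levels and ratios between genes. Chi-square per degree of freedom was 10.0 between the KO and 7.74 between the WT libraries, so none were merged. The edgeR step was tested on simulated data. Alternatives were RLE, library totals or upper quartile scaling, no filter or a count minimum of 50, the replicate block, DESeq2 1.42.0, limma 3.58.1 (voom) and leaving out each library, and a crossed pairing was added after the data were seen. The members and lists were chosen with earlier results of these data known. Named from each list were up to 3 called genes per direction with a mean of at least 5 CPM, by p, and for Smad4 and Smad7 the 3 nearest profiles. A gene that this rule selects is not reported here.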

Additional observations from a re-analysis of the deposited data

How the results depend on the processing

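Smad7 and Tgif1 kept their direction and call in each of 13 other settings, and Skil kept its direction in all and its call in 11. Leaving out 1 library gave 0 to 1 higher and 2 to 3 lower members, 714 to 1605 higher and 831 to 1787 lower genes overall (1354 and 1472 with all libraries), and 4 to 9 higher and 5 to 15 lower genes on the 6 lists. Over these 4 fits the log2 fold change ran from -0.063 to 0.40 for Smad4, -0.098 to 0.29 for Smad5, -0.21 to 0.014 for Smad2 and -0.17 to 0.15 for Smad3, and the cause of each change of sign was not tested. Library totals alone gave 2105 higher and 1013 lower genes, moved the median of all genes from -0.0037 to 0.08, left 6 lower genes on the lists and turned Smad3 to 0.064. The labels do not say what a replicate number marks, and deviations of same-numbered libraries correlated at -0.10 over 10040 genes. With the replicate block 1393 genes were higher and 1522 lower, and 0 and 3 of the members. The crossed pairing, chosen after seeing the data, gave 1673 higher and 1770 lower genes, 18 lower genes on the lists, and 0 and 3 members. The number of members with a higher mean per length in KO was 3 by FPKM and 3 by TMM-scaled CPM per kilobase. A count minimum of 50 left Smad6 untested. With 13 to 28 reads for Smad6 and 100 to 140 for Smad1, changes of the size seen in Tgif1 were not detectable in these genes.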
